A study of Mus musculus with 6 samples.

Results

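Collagens, laminins and other genes of the extracellular matrix were followed in tumor-infiltrating regulatory T cells (Tregs). The genes were taken by symbol from the deposited count table: every collagen alpha chain gene (symbols of the form Col-number-a-number), every laminin chain gene (Lama, Lamb or Lamc with a number), and Fn1, Sparc, Bgn, Dcn, Lum, Eln, Mgp, Nid1, Nid2, Hspg2, Vcan, Postn, Thbs1 and Tnc. These were 58 of the 15319 genes listed, made up of 34 collagens, 10 laminins and 14 others, and Fbn1 was not analysed here. The Tregs came from lung tumors of mice that were 8 to 10 weeks old when cells of LLC, a mouse Lewis lung carcinoma line, were injected into the tail vein, and the tumors were taken at 21 days. The WT group carried Foxp3 Yfp-cre alone, and the cKO group carried Xrcc6 flox/flox with Foxp3 Yfp-Cre, so that both groups expressed the YFP-Cre fusion from the Foxp3 locus and Xrcc6, which encodes the DNA repair protein Ku70, was deleted in Foxp3-expressing cells. Each group had 3 libraries of bulk RNA-Seq. The comparison addresses whether Tregs that lack Ku70 carry other levels of matrix transcripts than WT Tregs, a gene group that the study's ontology analysis names.

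Collagen alpha chains wind around each other into helices that build fibrils, sheets or filaments, and laminins are trimers of an alpha, a beta and a gamma chain that form the first layer of a basement membrane. Fibronectin, thrombospondin and the small proteoglycans link these scaffolds to cells and to growth factors. In lung and tumor the scaffold is made mainly by fibroblasts, mural cells, endothelium and epithelium, while T cells are known for binding it through integrins and CD44 rather than for making it.

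The values are estimated counts that were rounded, scaled by edgeR's TMM method and given as CPM, the count as a share of the scaled library total. The library totals were 19032620 to 21707706 counts for WT and 20762042 to 23159815 counts for cKO, and 3 counts, the limit that a count of 0 allows, were worth 0.133 to 0.156 CPM, a limit that covers counting error only. Xrcc6 was at 20.9, 63.1 and 23.8 CPM in the WT libraries and at 5.24, 3.51 and 4.18 CPM in the cKO libraries, in the direction of the labels (exact two-sided permutation p = 0.1, the smallest that 3 against 3 can give). The Treg markers Foxp3, Il2ra, Ctla4, Ikzf2, Tnfrsf18, Cd4 and Cd3e summed to 4170 to 5536 CPM in WT and 4299 to 4703 CPM in cKO. WT replicate 2 stood apart: it listed 11513 genes with a count, against 14442 to 14737 in the other 5 libraries, and the main counts and the members that turn on it are therefore given with and without it. The methods give a CD4+CD25+YFP+ sorting gate for Tregs of spleen and lymph nodes, and the gate used for the tumor Tregs is not given in the sources used here.

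Lamc1 was the one member with a mean level of at least 10 CPM. Lamc1 encodes the laminin gamma 1 chain, which most laminin trimers contain, and lies at chr1:153218922-153332786 on the minus strand of GRCm38. Its level was 101, 68.4 and 64.3 CPM in WT replicates 1, 2 and 3, and 94.8, 69.9 and 56.1 CPM in cKO replicates 1, 2 and 3. The groups overlapped, with the first replicate of each group above all others. Between the groups, cKO over WT, the log2 fold change was -0.08 (SE 0.25, edgeR unadjusted p = 0.756, n = 3 per group), and -0.17 (SE 0.24, edgeR unadjusted p = 0.502) without WT replicate 2. Lamc1 alone held 45.8% to 63.2% of the summed CPM of all 58 genes in a library.

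The partner chains of Lamc1 were at far lower levels. Per kilobase of annotated exon, the scale on which genes can be compared, Lamc1 averaged 9.15 CPM per kilobase over the 6 libraries, 6.55 times the next matrix gene. The 4 alpha chains together, Lama2 to Lama5, ranged from 0.113 to 0.982 CPM per kilobase across libraries, and the 3 beta chains, Lamb1 to Lamb3, from 0.467 to 0.960. Lamc1 stood above the summed alpha chains by a ratio of 8.42 to 96.4 and above the summed beta chains by a ratio of 8.61 to 19.5. Lamb1 and Lamb2, the beta chains of the common gamma 1 laminins, together reached at most 0.0866 CPM per kilobase, and most of the beta signal was Lamb3.

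**Figure D1:**
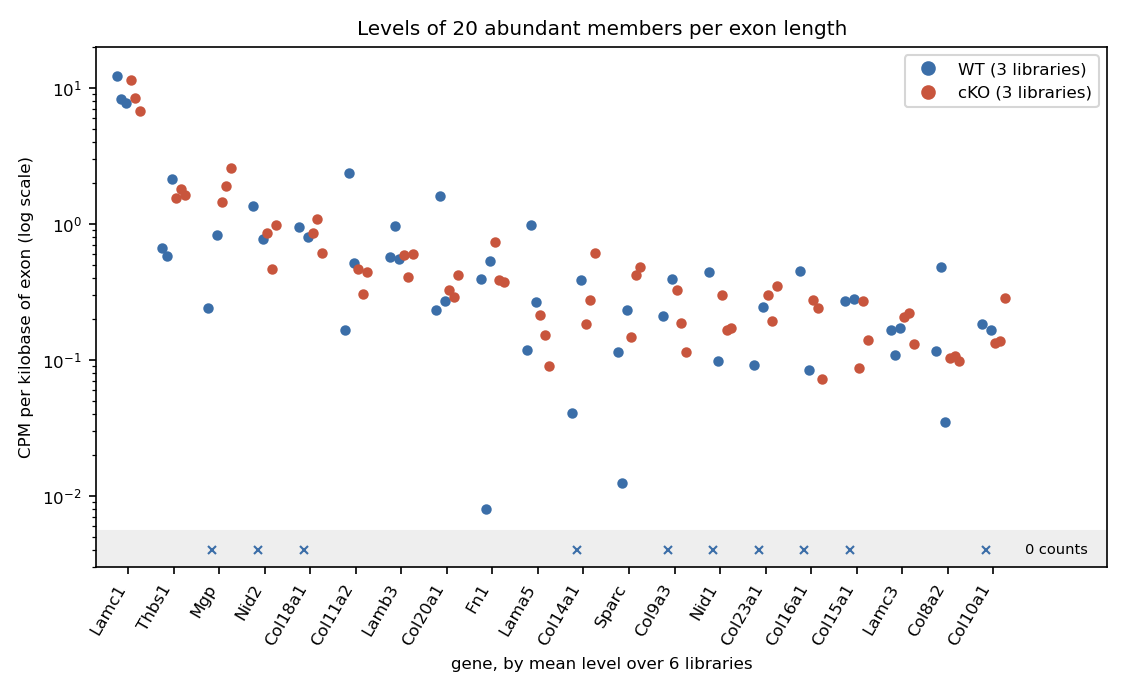
Level of 20 of the most abundant matrix genes in CPM per kilobase of annotated exon (log axis) in each library, WT in blue and cKO in red with 3 libraries each, and crosses in the gray band for 0 counts. Lamc1 lies above every other gene in all 6 libraries, and each cross belongs to WT replicate 2.

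Most of the rest of the set was at low levels. Over the 6 libraries the median of the 58 mean levels was 0.391 CPM, against 14.3 CPM for all genes. By mean CPM, 42 members were in the lowest 25% of all genes and 1, Lamc1, was above the median gene. The mean level was under 1 CPM for 41 members and at least 1 CPM for 17. While 7 members never passed 3 counts in any library, 26 passed 3 counts in every library other than WT replicate 2, and 9 of these in all 6. In the median member the highest library held 39.1% of the summed unscaled counts of that gene, and in 14 members it held more than all other libraries together.

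**Figure D2:**
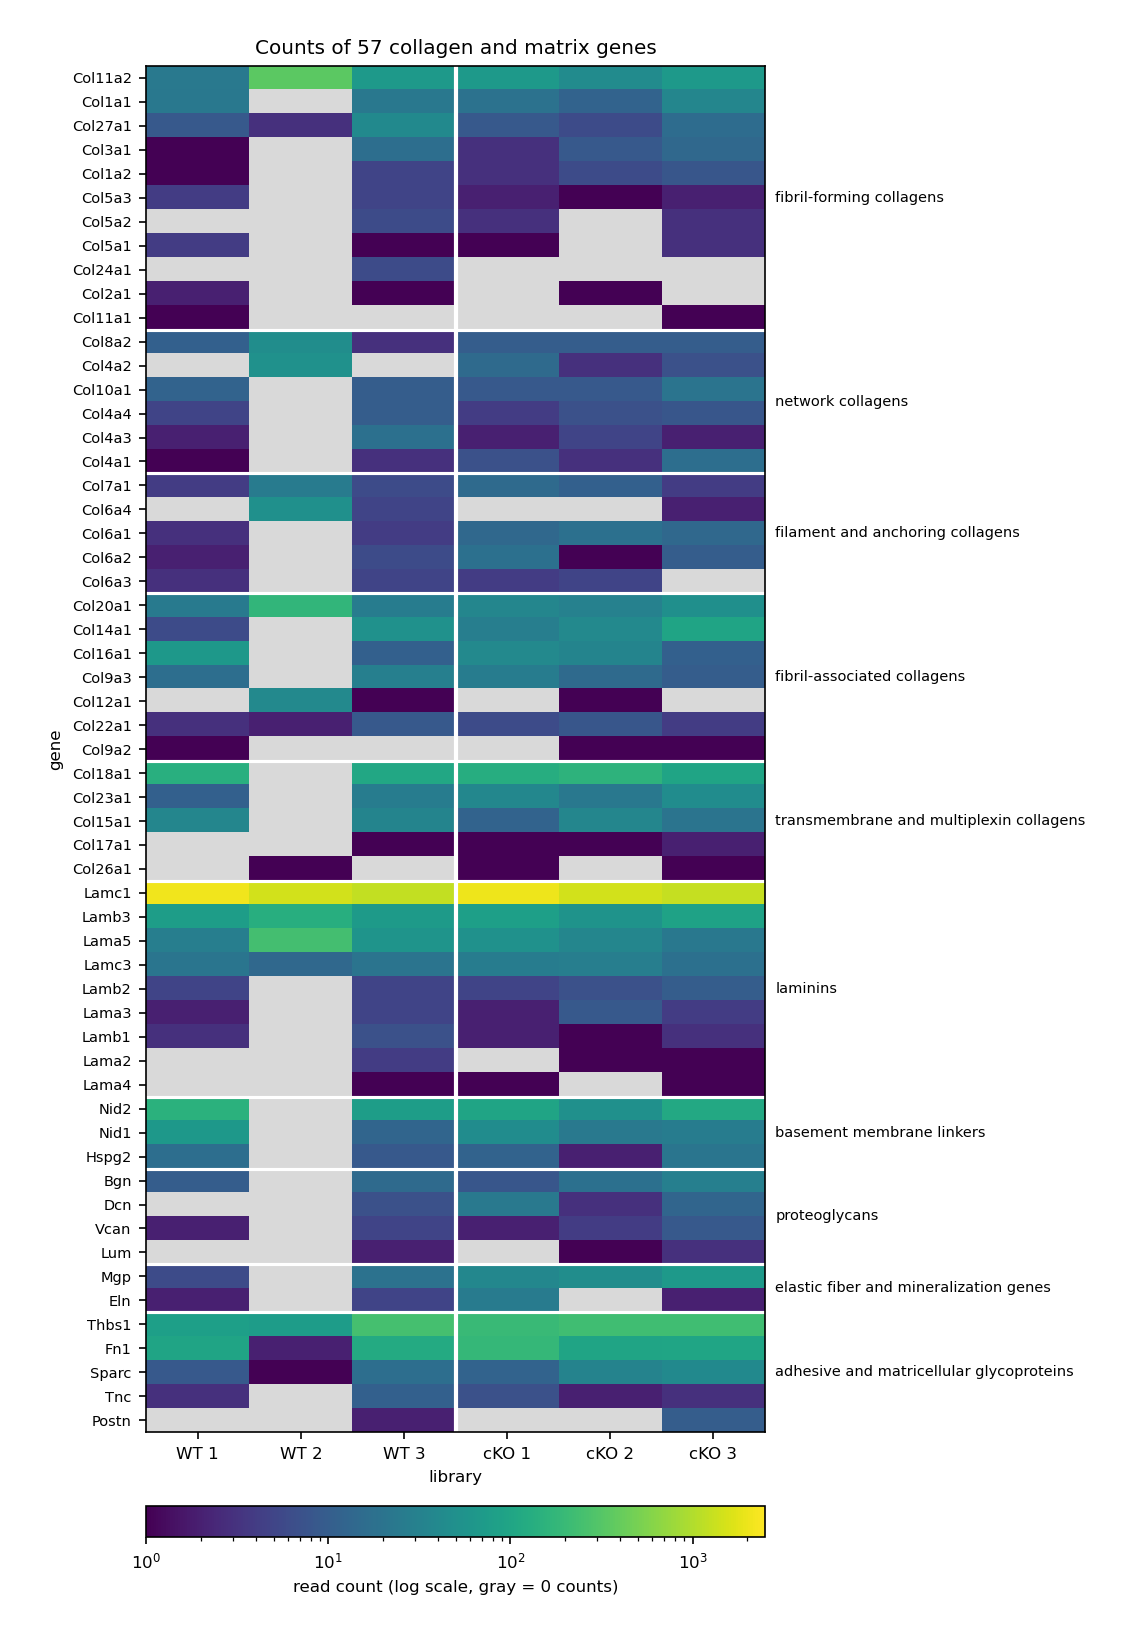
Rounded read counts of 57 of the 58 genes (rows, grouped by the kind of matrix protein and ordered by mean CPM) in the 3 WT and 3 cKO libraries (columns), on a log color scale with 0 counts in gray. The gray cells gather in WT replicate 2, where 40 genes were at 0, and Lamc1 is the one bright row.

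WT replicate 2 held far more 0 counts of the set than any other library. In that library 40 of the 58 genes (69.0%) were at 0 counts, against 4 to 12 in each other library, while 24.8% of all genes were at 0 in it and 3.77% to 5.70% in the others. The collagens gave 24 of these 40. For 26 members (44.8%), WT replicate 2 was the only library at 0, against 14.3% of all genes, and 14 members were at 0 there with more than 3 counts in every other library. These shares of all genes are not matched for level, and 42 of the 58 were in the lowest 25% of all genes by mean CPM. Col18a1, the basement membrane collagen whose end fragment is endostatin, had 139, 0 and 108 counts in WT and 130, 159 and 97 in cKO. Nid2, a nidogen that ties laminin to the collagen IV sheet, had 147, 0 and 77 counts in WT and 96, 50 and 114 in cKO. WT replicate 2 was the one library without a count of either gene, and their log2 fold changes of 0.55 (SE 1.31) and 0.11 (SE 1.35) with all libraries became -0.035 (SE 0.29) and -0.48 (SE 0.38) without WT replicate 2. In Nid2, 8.45% of the exon length is shared with Rtraf, which runs in the opposite direction, and the strand setting of the counting is not given in the sources used here.

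The same library also held the highest value of 11 members, 19% of the set against 29.0% of all genes. Col11a2, a chain of a minor fibrillar collagen of cartilage, was at 1.15, 16.3 and 3.54 CPM in WT and 3.20, 2.11 and 3.02 CPM in cKO. Lama5, the laminin alpha chain of adult lung epithelial and vascular basement membranes, was at 1.34, 11.2 and 3.02 CPM in WT and 2.46, 1.73 and 1.02 CPM in cKO. WT replicate 2 was far above the other 5 libraries for both genes, and the groups overlapped. Col20a1, a fibril-associated collagen, was at 1.19, 8.22 and 1.41 CPM in WT and 1.67, 1.49 and 2.18 CPM in cKO. The log2 fold changes of these genes were -1.33 (SE 0.91), -1.57 (SE 0.87) and -1.02 (SE 0.87) with all libraries, and 0.25 (SE 0.48), -0.33 (SE 0.50) and 0.45 (SE 0.41) without WT replicate 2. Col12a1 had 40 counts and Col6a4 had 50 counts in WT replicate 2, and neither passed 5 counts elsewhere.

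With all 6 libraries, none of the 58 genes passed the test of cKO against WT. No member passed an adjusted p of 0.05 in edgeR's quasi-likelihood test, nor did any gene of the whole table (0% called), and the smallest adjusted p of a member was 0.984. At an unadjusted p under 0.05, 0 members were higher and 0 were lower in cKO, against 0.94% and 0.868% of all genes (1.81% in either direction), and the smallest unadjusted p of a member was 0.0544. The median log2 fold change of the members was 0.25, with 35 positive (60.3%) and 23 negative. Over all genes the median was 0.04 and 54.5% were positive. DESeq2 put 2 members higher, Col6a1 (unadjusted p = 0.0455) and Mgp (unadjusted p = 0.0472), where 0.622% of all genes were called higher, and 1 member lower, where 1.39% were called lower. When the size of the log2 fold change also had to reach 1, the fold threshold that the study used, Col6a1 and Mgp were still called higher and no member lower by DESeq2, where 0.255% of all genes were called higher and 0.721% lower. The ontology term behind the set came from calls on these same libraries, so these counts are no independent evidence of its direction. None of the 58 passed an adjusted p of 0.05 in DESeq2. The WT and cKO libraries of Col6a1 and Mgp did not overlap, with cKO higher, and those of 1 member did not overlap with cKO lower, while 5.01% of all genes were without overlap and higher and 3.23% were without overlap and lower.

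Without WT replicate 2, 3 members were higher in cKO at an unadjusted p under 0.05, Col4a2, Col6a1 and Mgp, and 1 was lower. These are 5.17% and 1.72% of the members, 6.90% in all, against 1.52% and 1.5% of all genes, 3.01% in all. No member passed an adjusted p of 0.05, at a background of 0.00654%, and the smallest adjusted p of a member was 0.997. The median log2 fold change of the members was 0.025, with 29 positive and 29 negative. Over all genes the median was -0.01 and 48.6% were positive. With the 3 members that had a group at 0 counts set at the limit of 3 counts, the median was -0.05. Groups did not overlap in 4 members that were higher (Col20a1, Col4a2, Col6a1 and Mgp, background 8.48%) and 4 that were lower (Col2a1, Col5a3 and Lamb1 among them, background 7.53%).

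**Figure D3:**
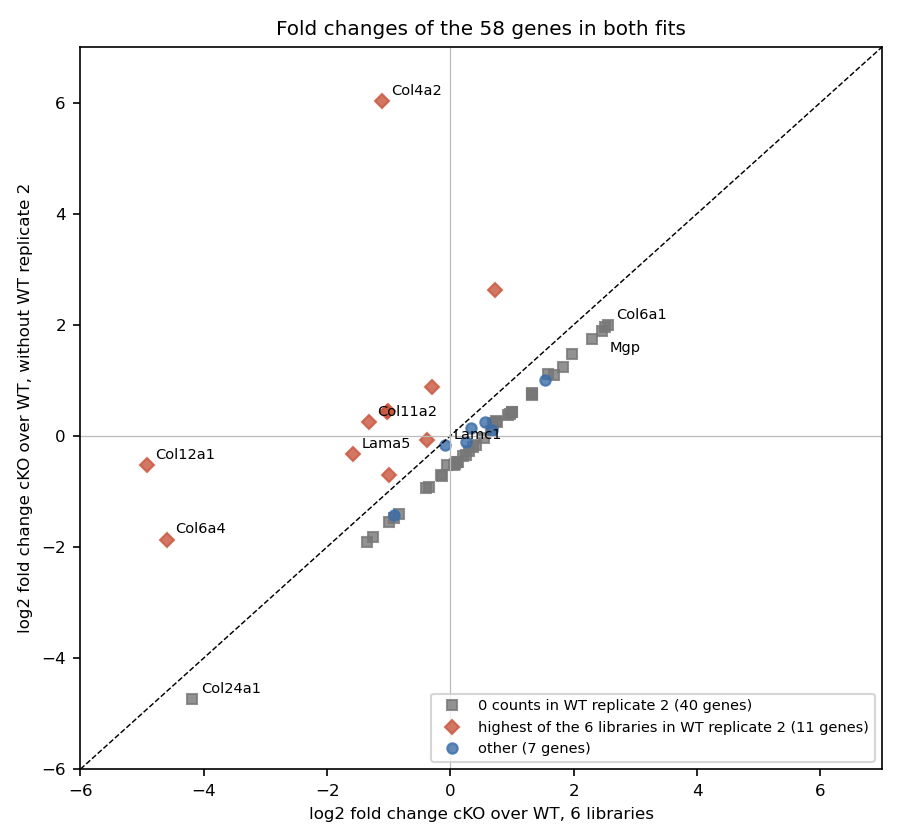
Log2 fold change of cKO over WT for the 58 genes with all 6 libraries (horizontal axis) and without WT replicate 2 (vertical axis), with equal values on the dashed line. The 40 genes at 0 counts in WT replicate 2 (squares) lie below the line and the 11 genes highest in it (diamonds) lie above it, as leaving out such a WT value requires.

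The direction of the shift is set by arithmetic and is no result of its own, since leaving out a WT library at 0 lowers the fold change and leaving out the highest one raises it. Of the 40 members at 0 there, 29 had a positive log2 fold change with all libraries and 19 without it, and their median moved from 0.48 to -0.10. Of the 11 members highest there, 1 had a positive value with all libraries and 6 without it, with medians of -1.03 and 0.25. The sign differed between both fits in 16 of the 58 members.

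Mgp, matrix Gla protein, an inhibitor of calcification made by vascular and smooth muscle cells and by cartilage, lies at chr6:136872435-136875823 on the minus strand of GRCm38. It was at 0.287, 0 and 0.990 CPM in WT and at 1.72, 2.26 and 3.07 CPM in cKO, and every cKO library was above every WT library. The log2 fold change was 2.46 (SE 1.27, edgeR unadjusted p = 0.0916, n = 3 per group) and 1.88 (SE 0.58, edgeR unadjusted p = 0.0107) without WT replicate 2. With WT replicate 1 or 3 also left out the comparison rested on 1 WT library, which edgeR then assumes to vary like the cKO libraries. The log2 fold change was 1.24 with WT replicate 3 alone and 3.01 with WT replicate 1 alone. Leaving out a cKO library besides WT replicate 2 kept the edgeR unadjusted p at 0.0108 to 0.0351.

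Col6a1 encodes an alpha chain of collagen VI, a microfibril around many cell types, and lies at chr10:76708792-76726168 on the minus strand. It had 3, 0 and 4 counts in WT and 14, 18 and 14 in cKO, which is 0.143, 0 and 0.208 CPM against 0.650, 0.865 and 0.623 CPM. The groups did not overlap, at levels of 18 counts or fewer. The log2 fold change was 2.55 (SE 1.14, edgeR unadjusted p = 0.0579) with all libraries and 1.99 (SE 0.70, edgeR unadjusted p = 0.0202) without WT replicate 2. With cKO replicate 2 also left out the edgeR unadjusted p was 0.0693. With WT replicate 1 or 3 also left out, 1 WT library remained, and the log2 fold changes were 1.74 and 2.27. In the chains that assemble with it the groups overlapped. Col6a2 had 2, 0 and 6 counts in WT and 18, 1 and 10 in cKO, and Col6a3 had 3, 0 and 5 in WT and 4, 5 and 0 in cKO.

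The upstream sequence of Col6a1 is shown because the groups of this collagen did not overlap and because Foxp3, which marks Tregs, is a forkhead factor. RefSeq on GRCm38.p6 gives the 250 bases before its start at chr10:76726045-76726294, here read on the minus strand, with a forkhead motif in capitals. GENCODE sets the start of the gene farther upstream, within this window, so some of the printed bases lie inside the gene as GENCODE annotates it. The motif searched was TGTTTAC on both strands, here on the other strand, and its first base lies 211 bases before the start.
Col6a1 upstream: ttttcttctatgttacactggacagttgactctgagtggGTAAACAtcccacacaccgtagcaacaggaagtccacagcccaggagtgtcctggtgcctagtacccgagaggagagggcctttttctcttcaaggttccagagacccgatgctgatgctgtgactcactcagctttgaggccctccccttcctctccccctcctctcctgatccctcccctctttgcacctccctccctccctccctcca
Of 32851 promoter windows in the RefSeq table, 3.65% held the motif, and of the 42 windows found for 37 of the members it was in 1, that of Col6a1. A match is a run of letters and not a measured site.

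Col4a2 and Col4a1 encode the chains of the common collagen IV sheet of basement membranes and are transcribed away from each other from overlapping starts on chromosome 8. Col4a2 had 0, 53 and 0 counts in WT and 15, 3 and 7 in cKO, and Col4a1 had 1, 0 and 3 in WT and 7, 3 and 17 in cKO. The 53 counts of Col4a2 in WT replicate 2 came with 0 counts of its partner. With all libraries the log2 fold change of Col4a2 was -1.10 (SE 1.82, edgeR unadjusted p = 0.563). Without WT replicate 2 both WT libraries were at 0, and edgeR gave an unadjusted p = 0.00945. The cKO mean of 0.384 ± 0.283 CPM (SD, n = 3) was 2.56-fold the limit of 3 counts per WT library. This ratio leaves out the error of the cKO mean, and cKO replicate 2 had only 3 counts itself. The annotated exons of the pair share 22 bases, shown here since reads across them cannot be told apart without strand, at chr8:11312805-11312826 of GRCm38.p6, plus strand.
Col4a1-Col4a2 starts: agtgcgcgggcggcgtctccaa

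Lamb3, the laminin beta 3 chain of epithelial basement membranes, was at 3.78, 6.34 and 3.65 CPM in WT and 3.90, 2.69 and 4.0 CPM in cKO (log2 fold change -0.38, SE 0.51, and -0.07, SE 0.30, without WT replicate 2). The groups overlapped, with the highest level in WT replicate 2. Lama3, an alpha chain found in the same membranes, had at most 9 counts in any library.

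**Figure D4:**
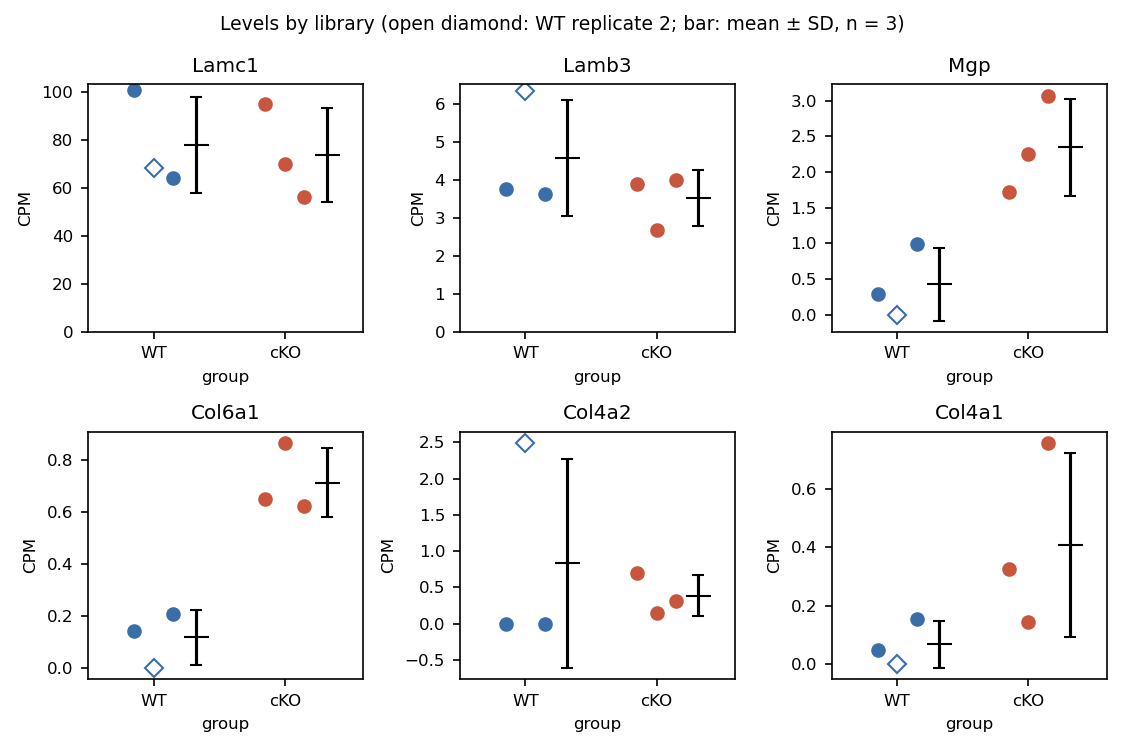
CPM of Lamc1, Lamb3, Mgp, Col6a1, Col4a2 and Col4a1 by group, with 1 point per library, WT replicate 2 as an open diamond, and the mean ± SD of the 3 libraries as a black bar. The cKO points of Mgp and Col6a1 lie above all WT points, while Col4a2 has its highest point in WT replicate 2.

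The fibrillar collagens that mark fibroblasts were low in both groups. Col1a1 had 23, 0 and 23 counts in WT and 19, 12 and 36 in cKO, and its partner Col1a2 had 1, 0 and 5 in WT and 3, 6 and 8 in cKO. Col3a1, the collagen of reticular fibers, had 1, 0 and 17 counts in WT and 3, 9 and 14 in cKO. The groups overlapped in all of these genes. Of the 11 fibril-forming collagens, 3 had a positive and 8 a negative log2 fold change with all libraries, and 2 and 9 without WT replicate 2. Of all genes, 54.5% and 48.6% were positive in these fits.

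Among the proteoglycans, Bgn, which binds collagen fibrils, had 10, 0 and 15 counts in WT and 8, 18 and 29 in cKO. Dcn, decorin, a fibroblast product that coats fibrils, had 0, 0 and 7 counts in WT and 24, 3 and 13 in cKO. The groups overlapped in both genes. All 4 proteoglycans had positive log2 fold changes in both fits, with medians of 0.96 and 0.40, where 54.5% and 48.6% of all genes were positive. With all libraries their edgeR unadjusted p was 0.185 to 0.656, and Lum had at most 3 counts in any library. Sparc, a collagen-binding matricellular protein, had 9, 1 and 17 counts in WT and 12, 33 and 41 in cKO, with a log2 fold change of 1.53 (SE 1.07, edgeR unadjusted p = 0.194), 1.01 (SE 0.65) without WT replicate 2, and overlapping groups.

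Fn1, fibronectin, which macrophages and fibroblasts release, was at 4.64, 0.0940 and 6.25 CPM in WT and at 8.58, 4.56 and 4.40 CPM in cKO. Thbs1, thrombospondin 1, an adhesive protein stored in platelets and made by myeloid cells, was at 4.02, 3.52 and 13 CPM in WT and at 9.37, 11 and 9.96 CPM in cKO. In Thbs1 the cKO libraries lay together, between WT replicate 3 and the other WT libraries. The log2 fold changes were 0.68 (SE 1.10) for Fn1 and 0.57 (SE 0.56, edgeR unadjusted p = 0.339) for Thbs1, and 0.10 (SE 0.34) and 0.26 (SE 0.40) without WT replicate 2. Genes running in the opposite direction cover 3.43% of the exon length of Thbs1 and 2.5% of that of Fn1. The summed level of Col1a1, Col1a2, Col3a1, Sparc, Dcn and Fn1 was 6.26, 0.141 and 9.85 CPM in WT and 11.4, 7.59 and 9.38 CPM in cKO.

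The remaining leading genes of each kind overlapped between the groups as well. Col14a1, a fibril-associated collagen, had 6, 0 and 52 counts in WT and 28, 40 and 97 in cKO. Col8a2, a short-chain network collagen of corneal and vascular basement membranes, had 11, 46 and 3 counts in WT and 10 in each cKO library. Col7a1, which forms the anchoring fibrils below epithelium, had 4, 26 and 6 counts in WT and 15, 11 and 4 in cKO. None had an unadjusted p under 0.05 in edgeR, with or without WT replicate 2.

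The calls of single members moved with WT replicates 1 and 3 too. WT replicate 3 was above WT replicate 1 in 42 members and below it in 14. The same comparison was not made over all genes, so these counts cannot be read as particular to the set. Without WT replicate 3, 5 members were higher in cKO at an unadjusted edgeR p under 0.05 (Col14a1, Col3a1, Dcn, Mgp and Thbs1), where 1.88% of all genes were called higher, and 2 were lower (Col12a1 among them), where 1.88% were called lower. Without WT replicate 1 none was higher and 4 were lower (Col11a2, Col12a1, Col6a4 and Lama5), where 3.93% of all genes were called lower. Leaving out any cKO library from all 6 gave 0 members in either direction.

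Markers of cells that make matrix were present at low levels and differed among libraries. For fibroblasts and mural cells, 17 of 22 marker genes were listed, and their summed level was 11.2 to 23.5 CPM in WT and 9.75 to 20.8 CPM in cKO, with Npnt, Pdpn and Inmt highest in CPM. Of the 17, 12 were at 0 in WT replicate 2, and Pdgfrb had 0, 0 and 5 counts in WT and 1, 0 and 8 in cKO. Fbln2 was lower in cKO (4, 1 and 6 counts against 0, 0 and 0, edgeR unadjusted p = 0.0266), where 0.868% of all genes were called lower. The log2 fold change was positive for 10 of the 17 and negative for 7, with a median of 0.58, while 54.5% of all genes were positive. At 0 in all WT libraries and with counts in cKO were Twist1 (10, 1 and 0), Rgs5 (0, 0 and 7), Cspg4 (0, 2 and 3) and Mfap4 (0, 2 and 6). Their edgeR unadjusted p was 0.0775 to 0.137, and the share of all genes with this pattern was not counted. The highest genes in CPM, Npnt, Pdpn and Inmt, had log2 fold changes of -0.25, -0.47 and -1.10 with all libraries. For endothelial cells, 13 of 16 markers were listed, with sums of 62.2 to 86.5 CPM in WT and 72.0 to 98.4 CPM in cKO, most of it Pecam1, which leukocytes also express, followed in CPM by Tie1 and Eng. Plvap had 0 counts in every WT library and 11, 3 and 10 in cKO (edgeR unadjusted p = 0.00989), and Vwf had 0, 0 and 1 against 26, 5 and 6 (edgeR unadjusted p = 0.0133). Of all genes, 0.94% were called higher at an unadjusted p under 0.05. With all libraries 12 of the 13 had a positive log2 fold change, where 54.5% of all genes did. Their median was 1.15, and 0.78 without WT replicate 2. The 1 with a negative value was Tie1, with 0, 141 and 0 counts in WT and 0, 0 and 11 in cKO. Mgp and Col6a1 were higher in cKO, as Plvap and Vwf were. In cKO replicates 1, 2 and 3, Mgp had 37, 47 and 69 counts and Col6a1 had 14, 18 and 14. At such counts the order of the replicates cannot be compared between genes. The part of fibroblasts, mural cells and endothelial cells in the matrix genes was not tested. In bulk samples fewer cells of a type and less RNA per cell cannot be told apart.

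Blood and myeloid markers also differed among libraries. The 8 listed platelet genes were all at 0 in WT replicate 2 and summed to 6.84 and 34.9 CPM in WT replicates 1 and 3, and to 10.8, 22.1 and 47.2 CPM in cKO replicates 1, 2 and 3, with Pf4, Gp1ba and Itga2b highest. The 16 macrophage genes summed to 204, 808 and 806 CPM in WT and to 275, 626 and 1236 CPM in cKO, with Lyz2, C1qb and Chil3 highest. Lamc1 was highest in WT replicate 1 and cKO replicate 1, the libraries with the lowest macrophage sums. Npnt of the fibroblast list was also highest in these libraries, at 18.9 and 16.8 CPM. Neither relation was tested. Of the 9 listed neutrophil genes, 4 were higher in cKO at an unadjusted edgeR p under 0.05 (S100a9, Retnlg, Ngp and Lcn2), against 0.94% of all genes. The list was chosen with earlier results of these same libraries known, so these calls are no independent evidence. Its summed levels were 11.4 to 20.5 CPM in WT and 16.3 to 19.6 CPM in cKO. The 19 lung epithelium genes summed to 108 to 175 CPM in WT and 107 to 144 CPM in cKO, with Hopx, Scgb1a1 and Epcam highest, and 1 gene, Krt7 (0, 0 and 0 counts against 4, 9 and 3), was higher in cKO (edgeR unadjusted p = 0.0154). Fbln2, Plvap, Vwf, Krt7 and the 4 neutrophil genes also had an unadjusted edgeR p under 0.05 without WT replicate 2, from 0.000556 to 0.0175. Of all genes, 0.94% were called higher and 0.868% lower with all libraries, and 1.52% and 1.5% without WT replicate 2. The part of these cells in Lamc1, Thbs1, Fn1 and Lamb3 was not tested.

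**Figure D5:**
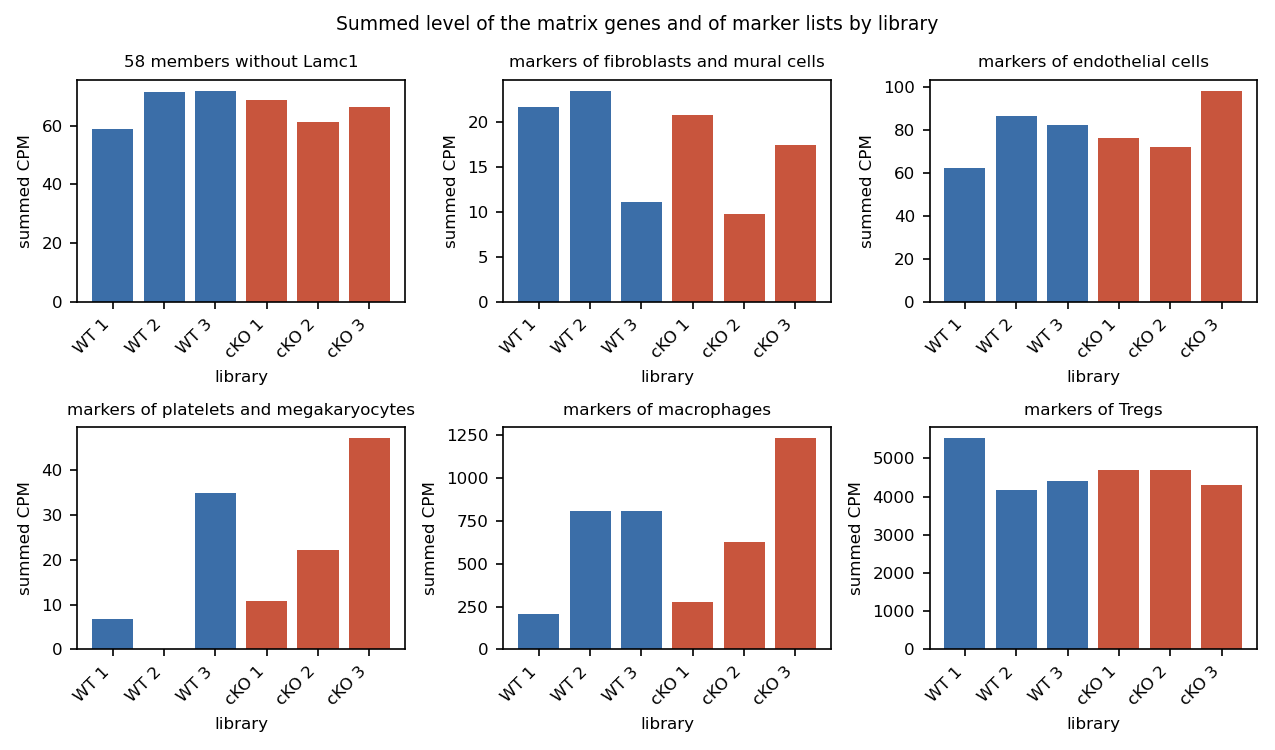
Summed CPM per library of the matrix genes without Lamc1 and of the marker lists for fibroblasts and mural cells, endothelial cells, platelets and megakaryocytes, macrophages and Tregs, WT in blue and cKO in red, with bars from 0. The matrix sum stays between 58.7 and 71.9 CPM while the platelet sum runs from 0 to 47.2 CPM and the macrophage sum from 204 to 1236 CPM.

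The summed level of the matrix set did not separate the groups. All 58 genes summed to 160, 140 and 136 CPM in WT and to 164, 131 and 122 CPM in cKO, and without Lamc1 to 58.7, 71.3 and 71.9 CPM in WT and 68.7, 61.1 and 66.3 CPM in cKO. In WT replicate 2 this sum came from the 18 genes with a count.

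Leading genes that process or bind matrix were above Lamc1 per exon length, and their summed levels did not separate the groups either. Cd44, a receptor for hyaluronan, averaged 69.1 CPM per kilobase and P4hb, a subunit of collagen prolyl hydroxylase, 75.5 CPM per kilobase, against 9.15 for Lamc1. Of 29 genes for collagen synthesis and cross-linking, 25 were listed, with sums of 541 to 763 CPM in WT and 698 to 754 CPM in cKO, led by the chaperones and hydroxylases Ppib, P4hb and P4ha1. Of these, 1 was higher in cKO at an unadjusted p under 0.05, where 0.94% of all genes were called higher. It was Lox, a collagen cross-linking oxidase at 0 counts in all WT libraries and 3, 1 and 2 counts in cKO (edgeR unadjusted p = 0.0453), which is at or under the limit in every library. Without WT replicate 2 the unadjusted edgeR p of Lox was 0.0791, that of Plod1, a collagen lysyl hydroxylase that was higher in cKO, was 0.0356, and that of the protease inhibitor Timp4, lower in cKO, was 0.0434. In that fit 1.52% of all genes were called higher and 1.5% lower. Of 31 matrix proteases and inhibitors, 26 were listed and 0 passed with all libraries, with Adam8, Timp2 and Adam10 highest. Of 30 matrix receptors, 29 were listed and 0 passed with all libraries, with mean levels of 468 CPM for Cd44, 341 CPM for Cd47 and 334 CPM for Itgb1. The receptors summed to 1548 to 1843 CPM in WT and 1746 to 1762 CPM in cKO, and their median log2 fold change was 0.14.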

How the data were processed

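Tumor-infiltrating Tregs were sorted from tumors digested with Collagenase IV and DNase I, and sequenced on the BGI-Seq500 platform with paired-end reads. The authors aligned the reads to GRCm38 and deposited expected counts per gene symbol, not normalized. The submitters' processing notes name Bowtie2 2.3.4.3 and RSEM 1.3.1, and the annotation and strand setting are not given in the sources used here. Values were not whole in 21.6% of cases and were rounded. The labels do not say that libraries came from separate mice, so p-values measure the spread between these samples, which may be technical.

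Genes with at least 1 count (15315) were tested with edgeR 4.0.16 (TMM, quasi-likelihood, Benjamini-Hochberg over all genes) in R 4.3.3, with and without WT replicate 2. The SE of each fold change was taken from its size and its F statistic. Scripts were tested on simulated data. Alternatives were scaling by library size only or by median-of-ratios factors, filterByExpr (minimum count 10), DESeq2 1.42.0, the replicate number as a block, and each library left out. Those run without WT replicate 2 were chosen after seeing the data. Exon lengths and positions came from GENCODE vM21, and union exons may be longer than the transcripts present.

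A gene of the set is counted in the totals and is not reported here. Members and lists were chosen with earlier results of these data known. Genes were named if they had an unadjusted p under 0.05 in either fit, were among the 12 members highest in CPM or highest of their kind, had groups that did not overlap with a mean of at least 0.5 CPM, or were Col1a1, Col1a2, Col3a1, Sparc, Fn1 or Dcn. Of other lists, the 3 highest and those with an unadjusted p under 0.05 were named. Other genes named, among them Pdgfrb, Twist1, Rgs5, Cspg4, Mfap4, Col12a1, Col6a4, Col2a1, Col5a3, Lamb1, Lama3 and the chains that pair with a named gene, were chosen after their values were seen.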

Additional observations from a re-analysis of the deposited data

How the results depend on the processing

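With all 6 libraries the number of members higher at an unadjusted p under 0.05 was 0, and it was 2 with DESeq2 (0.622% of all genes) and 0 to 5 when each library was left out (0.294% to 1.88% of all genes). The number lower was 0, and it was 2 with library size only (0.96% of all genes), 1 with filterByExpr (0.818%), 1 with DESeq2 (1.39%) and 0 to 4 when each library was left out (0.131% to 3.93%). The median log2 fold change of 0.25 reached 0.025 and 0.97 at the extremes, when WT replicate 2 and WT replicate 3 were dropped. Without WT replicate 2, the 3 members higher became 1 to 8 when a further library was left out (0.543% to 4.66% of all genes), and the 1 lower became 0 with DESeq2 (1.13%), 0 with filterByExpr (1.43%) and 0 to 3 when a further library was left out (0.674% to 3.54%), with the median at -0.070 to 0.57. Among the members named by rule, the log2 fold changes that turned in sign when each library was left out ranged from -1.83 to 0.25 for Col11a2, -0.035 to 1.09 for Col18a1, -0.17 to 0.89 for Col1a1, -1.43 to 0.45 for Col20a1, -0.20 to 3.78 for Col3a1, -1.84 to 6.03 for Col4a2 (a fitted value that depends on the prior count), -0.71 to 0.87 for Col7a1, -1.52 to 0.42 for Col8a2, -0.31 to 0.15 for Lamc1 and -0.48 to 0.99 for Nid2. In all of these but Lamc1, leaving out WT replicate 2 turned the sign, and over all 58 members it turned the sign of 16.

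The deviations of same-numbered libraries correlated at 0.13, -0.054 and 0.20 over 11568 genes. Libraries of different numbers were not correlated for comparison, so these values cannot decide whether the replicate numbers pair the libraries. With the replicate block 0 members were higher and 0 lower at an unadjusted p under 0.05 (0.255% and 0.3% of all genes), the median log2 fold change was 0.80, and that of Col4a2 turned to 2.27. Depth limits most members, since 26 of 58 passed filterByExpr and 41 had a mean under 1 CPM.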

Other observations

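Secreted and matrix-associated genes outside the set were read off the same fits. The list of 68 such genes was chosen after the data were seen, and 47 of them were listed. Srgn, serglycin, the proteoglycan of leukocyte granules, had the highest mean level at 1933 CPM, which is 880 CPM per kilobase of exon, and Ecm1 and Igfbp4 had 94.8 and 85.1 CPM, which is 37.6 and 19.3 CPM per kilobase. Of the 47, 30 were at 0 counts in WT replicate 2. None had an unadjusted edgeR p under 0.05 with all 6 libraries, and the median log2 fold change was 0.06. Without WT replicate 2, Mfge8 was higher and Cilp2 and Igfbp7 were lower in cKO at an unadjusted edgeR p under 0.05, where 1.52% of all genes were called higher and 1.5% lower. Igfbp7, an insulin-like growth factor binding protein of vascular matrix, had 454, 1 and 200 counts in WT and 241, 156 and 192 in cKO, so its cKO libraries overlapped with WT replicate 3 while WT replicate 2 had almost none.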
